A study of Homo sapiens with 4 samples.

Results

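The 4 libraries of HT-29 cells were compared by replicate number, the 2 numbered II against the 2 numbered I, within each shRNA. These are all 4 samples of the series. HT-29 is a microsatellite-stable human colorectal cancer cell line with mutant BRAF and mutant APC. All cells carried a doxycycline (DOX)-inducible lentiviral shRNA, against APC (APC shRNA) or non-silencing (NonS), and all were treated with 500 ng/ml DOX for 72 hours, so that no library is of unmodified or untreated cells. Each shRNA has 1 library I and 1 library II, the cells of both shRNAs were a few passages past transduction, and the sources call the samples of a condition biological duplicates without saying what a number stands for, such as a day, a culture or a sequencing run. The arms share no library, so a gene that differs in the same direction between I and II in NonS and in APC shRNA has been measured with separate libraries in each.

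The deposited value of a gene in a library is a whole number that behaves as a level per transcript length, and its depth in reads is unknown. Genes with a mean of at least 10 over the 4 libraries were compared, 5376 of 19729. Where 4 values stand in a row, they are in the order NonS I, NonS II, APC shRNA I and APC shRNA II. Each is 1 library, so the error of a difference can be read only from how alike the 2 arms are. A replicate difference is the value on the log2(value + 1) scale in II minus that in I, which understates the change of low genes, and a ratio is II over I on the deposited values. APC itself was listed at 3, 0, 0 and 0 and was too low to check the silencing. Of the colonic epithelial markers, KRT18 (1550 to 2083), EPCAM (183 to 224) and KRT20 (180 to 266) were present in every library, while CDX2 reached 4 and CDH17 reached 2. The 6 fibroblast and 4 endothelial markers were at 0 in all 4 libraries, and of the 5 leukocyte markers CD14 alone was above 0, at most 4.

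Interferons signal through JAK kinases to transcription factors that bind the interferon-stimulated response element in promoters and switch on antiviral effectors, and in epithelial cells they also raise the machinery that presents peptides on MHC class I. Glycolysis, lipid synthesis, protein folding and ribosome assembly are housekeeping programs that follow the nutrient, oxygen and growth state of a culture. In colorectal cancer cell lines all of these are active to some degree in ordinary culture.

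Over the 5376 genes, the difference between II and I in the NonS arm and that in the APC shRNA arm had a Pearson correlation of 0.724 and a Spearman correlation of 0.571 across genes, which are not independent replicates. Without the 55 genes of the interferon lists these values were 0.664 and 0.559 over 5321 genes. In both arms, 199 genes (3.7%) were at least 1.3-fold higher in II and 218 genes (4.06%) at least 1.3-fold lower, while 0 genes were past 1.3-fold higher in NonS and past 1.3-fold lower in APC shRNA, and 10 the other way round. By any amount, 36% of the genes were higher and 24% lower in II in both arms. The values of both libraries II lay above those of both libraries I for 11.8% of genes and below for 9.15%. Within single arms, 382 genes were 1.3-fold higher and 375 lower in NonS, and 457 and 351 in APC shRNA. The median difference of all genes was 0.00 in NonS and 0.04 in APC shRNA, so libraries I and II were on nearly the same scale.

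The test over all genes, limma with the shRNA as a block, called 0 genes higher and 0 lower (0% of genes in each direction) at an adjusted p under 0.05, with a smallest adjusted p of 0.193 and 1160 genes (700 higher, 460 lower) at an unadjusted p under 0.05. With 4 libraries this model has 1 residual degree of freedom, and 198 genes had exactly the same difference in both arms because the values are whole numbers. After median-of-ratios scaling, after which values are no longer whole numbers, limma called 363 genes higher (6.75%) and 433 lower (8.05%), and with the 198 genes set aside it called 552 and 455. The size factors of the median-of-ratios scaling were 0.983 to 1.024, so it changed the values little. The prior degrees of freedom, which pull each gene's variance toward the trend, were 1.14 before it and 10.8 after it. Unless stated otherwise, adjusted p-values below for single genes are from the fit after this scaling. The same genes have adjusted p-values of 0.193 or more in the fit on the values as deposited. The test asks whether the mean difference over both arms departs from 0, judged against how far the arms disagree. It does not ask what set the libraries apart.

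Of the gene lists with members tested, the 3 interferon lists had the largest median differences in both arms. IFI6, an interferon-induced mitochondrial protein, was at 53, 413, 169 and 1489, a ratio of 7.79 in NonS and 8.81 in APC shRNA (adjusted p = 5.56e-09). ISG15, a ubiquitin-like modifier, was at 158, 510, 200 and 830 (adjusted p = 5.04e-07). For both genes the 2 libraries II were above the 2 libraries I with no overlap. B2M, the light chain of MHC class I, was at 171, 278, 157 and 529, a ratio of 1.63 in NonS and of 3.37 in APC shRNA (adjusted p = 0.000575). Its arms differed by 1.05 on the log2(value + 1) scale. The limma adjusted p of B2M was 0.251 on the values as deposited and 0.065 after correction for GC content. IFITM1, a membrane protein that blocks virus entry, was at 7, 46, 26 and 211, and the antiviral GTPase MX1 at 10, 53, 20 and 108. Among regulators, IRF7, the factor that amplifies interferon transcription, was at 25, 70, 31 and 77. The immunoproteasome subunit PSMB8 was at 8, 19, 13 and 36 and HLA-B at 23, 60, 38 and 148.

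Of the 55 interferon genes tested, 50 were at least 1.3-fold higher in both arms, against 3.7% of all genes. They were made up of 10 of 12 regulators and sensors, 30 of 32 effectors and 10 of 11 genes of MHC class I and antigen processing. None of the 55 was lower in both arms. The median difference of the 32 effectors was 1.35 in NonS and 1.59 in APC shRNA, and 45 of the 55 genes differed more in APC shRNA than in NonS. Reads of near-identical relatives (IFITM1, IFITM2 and IFITM3, and the HLA genes) may have been split or lost in the counting, so their single values are less certain. Of the 41 genes at least 2-fold higher in both arms on the log2(value + 1) scale, 30 were in these lists.

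The promoters of members that moved together are shown because most hold the core of the interferon-stimulated response element. RefSeq (GRCh38.p14) promoter windows, from 250 bases before to 50 after a start, were found for 38 of the 50 higher interferon genes, and 25 of them (65.8%) hold the letters GAAANNGAA or their reverse complement TTCNNTTTC. They occur in 8.11% of all 35116 windows and in 8.29% of the genes tested that have a window. Of all 41 genes tested in the 3 interferon lists that have a window, 28 (68.3%) hold them. The higher members thus hold them no more often than the lists as a whole. The stretches below lie before the start, run 5′ to 3′ along the gene, and have the matches in capitals, overlapping matches merged. LAP3, a leucine aminopeptidase, is in none of the lists and is shown beside them.
IFI6 (chr1:27672262-27672363, - strand): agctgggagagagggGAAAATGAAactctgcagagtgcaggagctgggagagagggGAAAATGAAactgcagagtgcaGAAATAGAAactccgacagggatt
ISG15 (chr1:1013369-1013419, + strand): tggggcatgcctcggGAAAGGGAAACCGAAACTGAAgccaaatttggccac
IFITM3 (chr11:320872-320927, - strand): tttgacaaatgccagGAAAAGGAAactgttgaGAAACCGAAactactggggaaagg
IFIT1 (chr10:89392493-89392544, + strand): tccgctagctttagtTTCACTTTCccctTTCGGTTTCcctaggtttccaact
TAP1 (chr6:32853808-32853852, - strand): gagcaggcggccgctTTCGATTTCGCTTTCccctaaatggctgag
B2M (chr15:44711358-44711402, + strand): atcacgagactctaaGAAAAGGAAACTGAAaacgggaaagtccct
LAP3 (chr4:17577001-17577039, + strand): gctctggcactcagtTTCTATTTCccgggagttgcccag
IFI6 and ISG15 have 3 match starts each in these stretches, IFITM3, IFIT1, TAP1 and B2M have 2 and LAP3 has 1. A match is a description of the sequence only.

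Outside the interferon lists, 149 genes were at least 1.3-fold higher in both arms. Of the 104 of them with a promoter window, 13 (12.5%) hold the same letters. Several genes outside the lists are interferon-inducible by general knowledge, so the lists do not hold the whole program. Among these, C19orf66, an inhibitor of viral frameshifting, was at 6, 15, 9 and 24, LAP3 at 47, 78, 40 and 75, TRIM14, an adaptor in RNA sensing, at 18, 30, 9 and 21, and LGALS9, a secreted galectin, at 12, 29, 25 and 46. RNF213 was at 7, 13, 9 and 20, ZNFX1 at 16, 29, 20 and 35, and RARRES3 at 32, 60, 33 and 85. In each of these 7 genes the ratio was at least 1.3 in both arms, and in each both libraries II were above both libraries I. These 7 were picked with their values in view.

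Glycolysis turns glucose into pyruvate, which lactate dehydrogenase and lactate transporters carry on under low oxygen or fast growth. Of 18 genes tested, 14 were higher in II in both arms by any amount and 5 by at least 1.3-fold, against 36% and 3.7% of all genes, and none was 1.3-fold lower. The median difference was 0.41 in NonS and 0.22 in APC shRNA. SLC16A3, which exports lactate, was at 12, 30, 9 and 17 (adjusted p = 7.21e-05), and LDHA, the subunit of lactate dehydrogenase that favours lactate formation, at 400, 706, 144 and 247 (adjusted p = 0.000135). The ratio for LDHA was 1.77 in NonS and 1.72 in APC shRNA, while both APC shRNA libraries were below both NonS libraries, so the values of I and II overlap across arms. ALDOC was at 23, 41, 13 and 19, PGK1 at 192, 325, 147 and 194, and PFKP at 40, 61, 23 and 31. The glucose transporter SLC2A1, at 197, 250, 228 and 311, and PKM, at 840, 1302, 802 and 1036, were higher in both arms without both passing 1.3-fold. ENO1, at 935, 1061, 582 and 518, and LDHB, at 432, 369, 371 and 292, did not share this direction.

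The hypoxia response list overlapped in function with glycolysis and held some of the highest values outside interferon. CA9, a carbonic anhydrase at the cell surface that is a textbook target of hypoxia-inducible factors, was at 58, 141, 13 and 36, a ratio of 2.43 in NonS and 2.77 in APC shRNA (adjusted p = 1.46e-06). NDUFA4L2, a mitochondrial protein induced by hypoxia, was at 11, 45, 0 and 8. NDRG1 was at 57, 91, 22 and 51, and P4HA1, a collagen prolyl hydroxylase, at 21, 30, 8 and 11. These 4 of 9 tested members passed 1.3-fold in both arms, against 3.7% of all genes, and none was 1.3-fold lower. The other 5 were short of 1.3-fold in at least 1 arm, with VEGFA, the vascular growth factor, at 29, 32, 20 and 28, MXI1 at 10, 10, 11 and 16, DDIT4 at 35, 26, 13 and 14, HILPDA at 17, 18, 27 and 30, and KDM3A at 13, 12, 12 and 9.

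Fatty acid synthesis and cholesterol synthesis are both under SREBP factors. The leading members named were the highest in fatty acid synthesis and the lowest in cholesterol synthesis. Their opposite directions follow from that choice. SCD, which makes monounsaturated fatty acids, was at 273, 588, 134 and 278, a ratio of 2.15 in NonS and 2.08 in APC shRNA (adjusted p = 1.07e-05). SREBF1, the gene of the factor that drives fatty acid synthesis, was at 39, 80, 34 and 59 (adjusted p = 5.91e-05), and ACSS2, which makes acetyl-CoA from acetate, at 9, 14, 41 and 62. FASN was at 83, 113, 72 and 85, higher in each arm and short of 1.3-fold in APC shRNA. ACACA was at 43, 51, 35 and 41, higher in each arm and short of 1.3-fold in both. ACLY was at 85, 82, 83 and 79. Of 9 members tested, 3 were 1.3-fold higher in both arms, against 3.7% of all genes, and none 1.3-fold lower. In cholesterol synthesis none of 22 was 1.3-fold higher in both arms and 3 were 1.3-fold lower, against 3.7% and 4.06% of all genes. Among the 3 were HMGCS1 at 50, 34, 31 and 22 and SC5D at 18, 10, 11 and 8. By any amount, 5 of the 22 were higher in both arms and 9 lower, against 36% and 24% of all genes. The median of these 22 was -0.06 in NonS and -0.07 in APC shRNA, against 0 and 0.04 over all genes. The transcripts of HMGCS1 and SC5D have a GC content of 40.2% and 38.6%, and none of the 22 was 1.3-fold lower in both arms after correction for GC content.

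S100 calcium-binding proteins were higher in II in both arms in 9 of 9 genes tested, 3 of them by at least 1.3-fold, against 36% and 3.7% of all genes. S100A4 was at 1437, 2201, 1431 and 2056, S100A6 at 2019, 3015, 1201 and 1573 and S100A13 at 53, 85, 58 and 89. Lysosome and autophagy genes were higher in both arms by any amount in 18 of 22, against 36% of all genes, with a median of 0.20 in NonS and 0.25 in APC shRNA. Past 1.3-fold was 1 of the 22, near the 3.7% of all genes, the cathepsin CTSZ at 197, 296, 154 and 222. CTSD was at 143, 214, 187 and 226 and CTSB at 38, 50, 36 and 46. Of 8 keratins tested 2 were past 1.3-fold in both arms, KRT19 at 539, 836, 483 and 640 and KRT17 at 5, 8, 13 and 18, and the median of the list was 0.55 in NonS and 0.12 in APC shRNA. KRT80 was at 21, 34, 54 and 59, KRT6A at 8, 12, 12 and 13, and KRT13, at 16, 21, 7 and 7, was equal in the APC shRNA libraries. Actin cytoskeleton genes were higher in both arms by any amount in 17 of 28, against 36% of all genes, and past 1.3-fold in 1 of 28, near the 3.7% of all genes.

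In the smaller sets, 1 to 3 members were past 1.3-fold higher in both arms, against 3.7% of all genes. They are given as values of single genes, since 1 of so few members says nothing about a list. Of 6 TGF-beta response genes these were PMEPA1 (9, 14, 22 and 38) and the ligand TGFB1 (15, 22, 12 and 17), and of 13 immediate early and ERK feedback genes JUNB (25, 42, 19 and 26), IER3 (43, 58, 56 and 86) and JUND (28, 37, 45 and 62). Another 4 of the 13 were lower in both arms by any amount, and after correction for GC content 1 of the 13 was 1.3-fold higher and 1 lower. AXIN2, a negative feedback regulator of Wnt signaling, was at 16, 22, 124 and 178, and was the 1 of 9 Wnt genes past 1.3-fold in both arms, so that its replicate ratios of 1.38 and 1.44 were small beside the step between shRNAs. The pro-apoptotic p53 target BBC3 was at 13, 22, 25 and 44 (1 of 4 p53 targets), the NF-kB inhibitor NFKBIA at 15, 23, 15 and 26 (1 of 3), LCN2, an iron-binding acute phase protein, at 70, 102, 79 and 113 (1 of 4), and LGALS3 at 52, 72, 47 and 67 (1 of 7 enterocyte products). CD9 (74, 103, 85 and 139) was among the 2 of 8 surface antigens, and ITGA3 (58, 89, 31 and 44) the 1 of 8 integrins and laminins. None of 3 metallothioneins tested passed, with MT2A at 26, 30, 42 and 61, and the 1 aryl hydrocarbon receptor target tested, TIPARP, was at 10, 11, 12 and 15.

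Among higher genes in none of these programs, LOXL4, a lysyl oxidase of the extracellular matrix, was at 2, 10, 12 and 36, TGM2, a transglutaminase, at 32, 85, 48 and 100, and RGCC at 5, 12, 72 and 149. SNCG was at 160, 289, 132 and 234, IGFBP6 at 27, 71, 44 and 77, EEF1A2 at 4, 8, 11 and 21, and OPTN, an autophagy receptor, at 7, 14, 7 and 13. Where a value is under about 10, 1 unit of the whole-number scale is a large part of it.

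**Figure D1:**
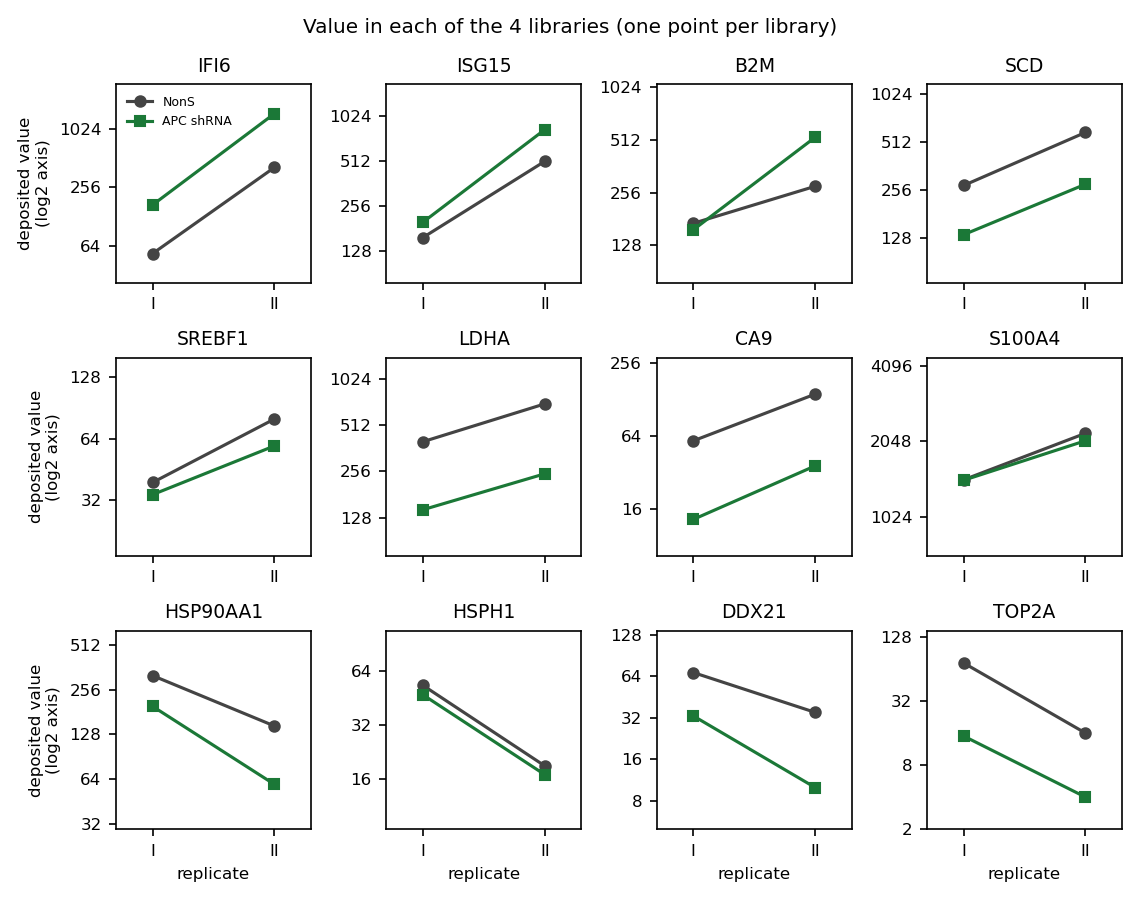
Deposited value in each of the 4 libraries for 12 genes, on a log2 axis that differs between panels, with replicates I and II of the same shRNA joined by a line. In the first 8 panels (IFI6 to S100A4) both lines go up from I to II and in the last 4 (HSP90AA1 to TOP2A) both go down; for LDHA and CA9 the APC shRNA libraries are below both NonS libraries.

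Chaperones fold new and damaged proteins, and many had lower values in II. Of 24 cytosolic and mitochondrial chaperones tested, 19 were lower in both arms by any amount and 5 by at least 1.3-fold, against 24% and 4.06% of all genes, and for 14 of 24 both libraries II were below both libraries I, against 9.15%. HSP90AA1, the stress-inducible cytosolic HSP90, was at 319, 146, 198 and 59 (adjusted p = 9.97e-06), while its constitutive relative HSP90AB1 was at 764, 649, 737 and 636. HSPH1, a nucleotide exchange factor of HSP70, was at 53, 19, 47 and 17 (adjusted p = 8.3e-07), a ratio of 0.359 in NonS and 0.362 in APC shRNA. HSPA4 was at 54, 38, 46 and 23, the chaperonin subunit CCT8 at 108, 72, 79 and 43 and the mitochondrial chaperonin HSPD1 at 418, 279, 262 and 162. The constitutive HSP70 gene HSPA8 was at 660, 523, 596 and 498. The heat-inducible HSP70 genes did not share this direction, with HSPA1A at 125, 133, 139 and 147 and HSPA1B at 128, 134, 142 and 158, nearly identical copies whose reads cannot be cleanly told apart, and HSPB1 was at 123, 160, 151 and 168. The median of the 24 was -0.20 in NonS and -0.19 in APC shRNA, and -0.19 over both arms after correction for GC content. After the correction 4 of the 24 were 1.3-fold lower in both arms.

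Over all genes, 24% were lower in both arms by any amount and 4.06% past 1.3-fold. Genes of nucleolar ribosome biogenesis were lower in both arms by any amount in 31 of 36, 5 of them past 1.3-fold. Their median was -0.18 in NonS and -0.15 in APC shRNA. DDX21, a nucleolar helicase, was at 68, 35, 33 and 10, NOP58, a core protein of box C/D snoRNPs, at 62, 33, 35 and 16, LYAR at 25, 12, 13 and 6, and GNL3, or nucleostemin, at 50, 33, 36 and 22. The median difference of the list over both arms was -0.18, and -0.22 after correction for GC content. After the correction 3 of the 36 were 1.3-fold lower in both arms, and GNL3, at -0.36 in NonS, was short of it. Aminoacyl-tRNA synthetases, which charge tRNAs for translation, were lower in both arms in 16 of 20. EPRS, at 42, 25, 26 and 6, was the 1 past 1.3-fold, and LARS was at 44, 35, 30 and 19 and IARS at 85, 68, 51 and 37. Of 52 translation initiation and elongation factors, 29 were lower in both arms, 4 past 1.3-fold, and 1 was 1.3-fold higher. Of 83 cytosolic ribosomal protein genes, 34 were lower in both arms by any amount, against 24% of all genes, and for 23 both libraries II were below both libraries I, against 9.15%, with a median of 0.03 in NonS and -0.08 in APC shRNA and 1 gene past 1.3-fold lower. Of 71 mitochondrial ribosomal protein genes, 23 were lower in both arms by any amount and 1 past 1.3-fold.

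Of 33 mitosis and spindle genes, 19 were lower in both arms by any amount and 5 past 1.3-fold, against 24% and 4.06% of all genes. None was 1.3-fold higher. TOP2A, the topoisomerase that separates replicated chromosomes, was at 73, 16, 15 and 4, a ratio of 0.219 in NonS and 0.267 in APC shRNA (adjusted p = 5.89e-07). MKI67, the proliferation antigen, was at 45, 25, 14 and 5, the cytokinesis proteins ANLN and ECT2 at 29, 11, 9 and 3 and at 39, 11, 13 and 5, and the kinesin KIF23 at 27, 18, 11 and 6. CDK1 was at 40, 22, 13 and 10. For TOP2A, MKI67, ANLN, KIF23 and CDK1 the groups overlap, because APC shRNA I was below NonS II. The median of the list was -0.06 in NonS and -0.21 in APC shRNA, so that the difference rested on some members. None of 33 DNA replication genes passed 1.3-fold in both arms. By any amount, 18 were lower in both and 1 higher, against 24% and 36% of all genes.

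The lowest genes of all by the smaller of both arms' differences came mostly from no list. KIF5B, the heavy chain of kinesin-1, was at 37, 8, 9 and 2 (adjusted p = 6.91e-07), and PDS5A, a cohesin regulator, at 26, 8, 12 and 3. CSE1L and IPO7, carriers of nuclear transport, were at 126, 41, 47 and 17 and at 76, 33, 39 and 12. ABCE1, a ribosome recycling factor, was at 41, 14, 17 and 6, ZNF146 at 57, 16, 33 and 12, MAPK6, or ERK3, at 21, 8, 12 and 4, BCLAF1 at 30, 7, 11 and 4, CEBPZ at 31, 8, 10 and 4 and GPBP1 at 20, 7, 13 and 5. In each of these 10 genes both libraries II were below both libraries I. ATAD2, a chromatin-associated ATPase, was at 68, 22, 17 and 5, with APC shRNA I below NonS II, so that its groups overlap. Of the 218 lower genes, 181 were in no list, and of the 199 higher ones 114. The median values of the 218 lower genes were 26, 15, 16 and 9. With at least 10 required in every library, 98 genes were lower. The filter on the mean thus let in genes such as KIF5B, where NonS I alone is above 10. Among the small lists, TEAD1 (13, 9, 18 and 9) was the 1 of 7 YAP and TEAD genes and SPINK4 (22, 13, 4 and 2) the 1 of 6 mucin and goblet genes past 1.3-fold lower.

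The lower genes shared a base composition that the comparison did not use. The longest GENCODE v29 transcript had a median GC content of 40.4% in the 217 lower genes with a sequence, against 51.9% over all genes tested and 55.02% in the higher genes. Of the lower genes 91.3% had a GC content under 45%, against 25.02% of all genes tested. The same was seen in coding sequence alone, with a median of 42.4% in the lower genes and 54.7% in all, and in 3′ untranslated regions, with 33.9% and 46.6%. Transcripts of the lower genes were also longer, with a median of 4008 bases against 3004 in all, and their median 3′ untranslated region was 1438 bases against 893. The interferon genes were not set apart in this way, with a median GC content of 52.5%.

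Stretches of 120 bases from the middle of the coding sequence are shown as examples, with G and C in capitals. KIF5B, TOP2A and HSP90AA1 were lower in II, and IFI6 and SCD higher.
KIF5B (coding bases 1387 to 1506): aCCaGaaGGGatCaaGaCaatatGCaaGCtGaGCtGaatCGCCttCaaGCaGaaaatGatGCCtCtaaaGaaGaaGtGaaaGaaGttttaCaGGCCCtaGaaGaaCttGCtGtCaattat
TOP2A (coding bases 2239 to 2358): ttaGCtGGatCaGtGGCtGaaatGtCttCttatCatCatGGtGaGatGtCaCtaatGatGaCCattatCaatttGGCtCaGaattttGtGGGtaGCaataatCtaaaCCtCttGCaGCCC
HSP90AA1 (coding bases 1223 to 1342): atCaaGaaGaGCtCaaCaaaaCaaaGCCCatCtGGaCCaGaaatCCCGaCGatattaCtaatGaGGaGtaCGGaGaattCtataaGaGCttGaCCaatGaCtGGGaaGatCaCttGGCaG
IFI6 (coding bases 137 to 256): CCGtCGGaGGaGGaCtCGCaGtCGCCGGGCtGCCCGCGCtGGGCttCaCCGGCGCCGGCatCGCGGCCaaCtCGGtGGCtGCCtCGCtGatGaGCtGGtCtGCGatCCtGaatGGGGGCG
SCD (coding bases 481 to 600): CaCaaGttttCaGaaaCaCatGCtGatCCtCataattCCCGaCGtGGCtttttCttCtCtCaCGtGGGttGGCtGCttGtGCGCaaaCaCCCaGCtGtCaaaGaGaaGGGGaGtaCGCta
Over the whole coding sequence the GC content was 40.3% in KIF5B, 39.4% in TOP2A and 44.6% in HSP90AA1, against 64.1% in IFI6 and 50.9% in SCD. The median was 54.7% over all genes tested and 54.4% in the higher interferon genes. IFI6 lay well above both medians and SCD below them, so they do not stand for the higher genes.

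The association with base composition differed in form between the arms. Across the 5364 genes with a sequence, the Spearman correlation of GC content with the difference was 0.486 in NonS and 0.078 in APC shRNA, a description across genes that share 4 libraries. Of the 397 genes under 40% GC, the median difference was -0.32 in NonS and -0.11 in APC shRNA, and 24.9% were 1.3-fold lower in both arms. Of the 1000 genes at 60% GC or more, 0.3% were lower and 5% higher. Among genes under 45% GC, the share lower in both arms was 4.67% for transcripts under 2000 bases, 15.1% from 2000 to under 4000 bases and 19.3% from 4000 bases. A correction of each library for GC content left 121 genes lower, 116 of them among the 218, and 209 higher, 155 of them among the 199. After it, the differences in NonS and APC shRNA were -1.72 and -1.55 for KIF5B, -1.12 and -1.24 for HSPH1 and -0.89 and -0.94 for LYAR, while in NonS that of LARS was -0.10. The part of base composition in the lower values was not tested.

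The lower genes also stood in one order over the 4 libraries. In 200 of the 218, or 91.7%, APC shRNA was below NonS in both replicates, against 36.9% of all genes tested. In these 200 NonS I was the highest and APC shRNA II the lowest of the 4 values. That order adds nothing further, since it follows from being lower in II in both arms and lower in APC shRNA in both replicates. The median difference of APC shRNA minus NonS was -0.60 in the 218 lower genes, 0.30 in the higher genes and 0.03 in all. Both comparisons use the same 4 libraries, so these values describe the order of the libraries and are no separate evidence. Of the 55 interferon genes, 35 were higher in APC shRNA than in NonS in both replicates. In the comparison of APC shRNA with NonS, limma called 432 genes at an adjusted p under 0.05, and 1023 with the replicate number as a block. In both fits even the smallest adjusted p was only just under 0.05, and it was higher with the block. Both counts thus hang on the exact threshold.

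In several further programs at most 4 genes passed 1.3-fold in 1 direction in both arms. Over all genes, 3.7% were 1.3-fold higher and 4.06% lower. Of 76 nuclear-encoded respiratory chain genes 1 was 1.3-fold lower and none 1.3-fold higher, and after correction for GC content 1 was lower and 3 were higher. Of 34 proteasome subunits 1 was 1.3-fold lower and none 1.3-fold higher, and after the correction 1 was lower and 2 were higher. Of 15 NRF2 targets 1 was 1.3-fold lower (6.67%) and none 1.3-fold higher. Of 17 ATF4 targets 1 was 1.3-fold higher (5.88%) and none 1.3-fold lower. The 13 mitochondrially encoded genes and the 11 tubulins had none past 1.3-fold in both arms. Of 64 splicing factors 4 were 1.3-fold lower, or 6.25%, which is above the share of all genes, and none was 1.3-fold higher. After the correction 1 was lower and 3 were higher. At the limit of 1.3-fold, PLAUR (17, 27, 9 and 12) and PPCS (18, 25, 19 and 25) were just inside on the higher side and ACSL5 (93, 122, 190 and 247) just outside, and SRPK1 (33, 24, 25 and 19) was just inside and PPP6R3 (34, 26, 21 and 15) just outside on the lower side.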

How the data were processed

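RNA of 4 HT-29 libraries was sequenced. The authors filtered reads for quality, trimmed polyA tails, mapped with TopHat2 to human assembly 38 (the labels also list hg19), counted per gene by htseq-count on the GENCODE v29 annotation and analysed the counts by DESeq2 1.4.1; the labels also list bcl2fastq 2.19.0.316. The whole numbers the authors deposited are taken as a score whose scale no source states, since each library's values times transcript length sum to nearly the same total, so no count model was run and depth is unknown. A deposited comparison table (mean, fold change, adjusted p) was not used, and 0 per-sample columns were left out.

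Here log2(value + 1) was fitted with limma 3.58.1 in R 4.3.3 (mean-variance trend, shRNA as a block, Benjamini-Hochberg over genes with a mean of at least 10), and ratios were counted within each arm. The plan's median-of-ratios fit was used for p-values of single genes since the planned fit made no calls, a choice made after that outcome was seen. Fits were tested on simulated data. The comparison, the 47 gene lists and their members were chosen with earlier results of these data known. Named genes are IFI6, ISG15, B2M, TOP2A and APC, the leading members of lists with at least 2 times the background share past 1.3-fold or a median over 0.15 from that of all genes, the 15 highest and 15 lowest genes, the 10 with the largest gap between arms, and, added with values in view, the 25 highest outside the interferon lists and other members of the lists described; some of these are left unnamed for brevity. Symbols, lengths and GC content are from GENCODE v29 (19502 of 19729 genes), and promoters are from RefSeq.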

Additional observations from a re-analysis of the deposited data

Results flagged for a closer look

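In 10 genes the arms moved in opposite directions by at least 1.3-fold, lower in II in NonS and higher in II in APC shRNA, and 0 genes did the reverse. Each arm has 1 library of each replicate, so these differences between arms were not tested. The gap below is the APC shRNA difference minus the NonS difference on the log2(value + 1) scale. For LUZP6, at 15, 4, 5 and 32 in NonS I, NonS II, APC shRNA I and APC shRNA II, it was 4.14. This gene lies within another transcript, so its reads cannot be cleanly assigned. It was 1.39 for SH3BGRL (13, 7, 17 and 26), 1.21 for NT5C3A (23, 15, 10 and 16), 1.18 for TPD52 (21, 14, 10 and 16) and 1.14 for SRP9 (86, 56, 64 and 93). For CBFB (15, 11, 10 and 16) the gap was 1.04, for PTGES3 (182, 138, 122 and 189) 1.02, for CCDC117 (10, 7, 11 and 16) 0.96, for LSM5 (17, 12, 12 and 16) 0.86 and for SOX4 (25, 19, 89 and 123) 0.84. After correction of each library for GC content the NonS difference was short of 1.3-fold in 8 of the 10, from -0.36 for SH3BGRL to 0.04 for LSM5. The other 2 were still past 1.3-fold in opposite directions, with -1.15 in NonS and 2.64 in APC shRNA for LUZP6 and -0.43 and 0.39 for SOX4. Large gaps without opposite signs were seen in TWF1 (32, 8, 7 and 7), DEK (62, 16, 16 and 12), EIF5B (38, 8, 8 and 5), LRBA (17, 10, 14 and 3), EPRS (42, 25, 26 and 6) and PHGR1 (39, 39, 15 and 6), where 1 library decides most of the difference.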

How the results depend on the processing

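The count of genes at an adjusted p under 0.05 depends on the fit. It was 0 higher and 0 lower on the values as deposited, with at least 10 in every library and with a pseudocount of 0.1 or 5. It was also 0 and 0 with no trend, a robust fit, no shRNA block and a threshold of 0.1. It was 363 higher and 433 lower with median-of-ratios scaling, 307 and 472 when the upper quartile set the scale, 180 and 196 with equal totals, 104 and 197 with no filter on low values, 119 and 62 with GC content correction, 355 and 329 with transcript length correction and 552 and 455 with the 198 tied genes set aside, an alternative chosen after seeing the data. Fits with a library left out also had no shRNA block and left a single library in a replicate group, so their calls are not given. The 1.3-fold counts of 199 and 218 were within 1.5 times under each other scaling, both pseudocounts, length correction and without tied genes. They were 518 and 1124 with no filter, 94 and 117 at 1.5-fold and 390 and 345 at 1.2-fold, and the lower count was 98 with at least 10 in every library and 121 with GC content correction. The cause was not tested.

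For APC shRNA against NonS, 432 genes became 1023 with the replicate number as a block. All of these calls lay just under the threshold in both fits, and the smallest adjusted p did not fall with the block. The larger count is therefore no sign of firmer calls. Same-numbered libraries deviated together, but no source says that a number marks a shared day or batch, so the numbers may not pair the libraries.

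Of the genes chosen by the rule or named in the text, the difference over both arms changed sign in 11. With median-of-ratios scaling MT1E came to -0.0131, ENO1 to -0.0172, TEAD2 to -0.00497, NT5C3A to -0.00173 and CCDC117 to -0.00141. With GC correction MT1E came to -0.0602, ENO1 to -0.0632, TEAD2 to -0.0492, ATF4 to -0.0443, SOX4 to -0.0199, MUC13 to 0.0268, SH3BGRL to 0.209, SRP9 to 0.288 and LSM5 to 0.307. With 4 libraries and whole-number values, differences of low genes by 1 or 2 units cannot be told from rounding.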
